A study of Homo sapiens with 2 samples.

Results

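Tubulins are the proteins from which microtubules are built, and the data here concern the mRNA of 10 human tubulin genes. They were chosen by gene symbol, 4 for alpha-tubulin (TUBA1A, TUBA1B, TUBA1C and TUBA4A) and 6 for beta-tubulin (TUBB, TUBB2A, TUBB2B, TUBB3, TUBB4B and TUBB6), and each had 1 row among the 50867 gene rows of the deposited table. The cells were HCT116, a long-established line from a human colorectal carcinoma. A library from cells transfected with an siRNA against PHF5A, a subunit of the SF3b splicing complex, was set against a library from cells given a control siRNA. Both groups were otherwise the same line and the same total RNA protocol, and the labels give neither the siRNA sequence nor the time after transfection. Each group had 1 library, which leaves every difference below without a replicate check, and no p-value is given.

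Microtubules are polymers of alpha- and beta-tubulin dimers. The isotypes of each family are close copies that differ most in their last residues, the tail that faces out from the microtubule and carries most tubulin modifications. TUBB is the constitutive beta-tubulin, TUBB4B is a broadly made isotype also found in cilia, and TUBB3 (class III beta-tubulin) is mainly made by neurons and testis but also by many carcinomas, where it has been linked to resistance to taxanes. Cells also adjust tubulin mRNA to the pool of free subunits: the factor TTC5 recognises the first residues of a tubulin chain as it leaves the ribosome and starts decay of the mRNA being translated.

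The codons of those first residues are where that recognition is encoded, so the first 30 coding bases of each isotype are given here from the principal transcripts of GENCODE release 29 (GRCh38). Capitals mark the first 4 codons.
TUBB3: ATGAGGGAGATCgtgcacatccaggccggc
TUBB6: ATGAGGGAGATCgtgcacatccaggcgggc
TUBB: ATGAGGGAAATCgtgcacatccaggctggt
TUBB4B: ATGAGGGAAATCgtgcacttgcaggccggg
TUBB2A: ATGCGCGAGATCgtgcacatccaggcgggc
TUBB2B: ATGCGTGAGATCgtgcacatccaggcgggc
TUBA1A, TUBA1B and TUBA1C: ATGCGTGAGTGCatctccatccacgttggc
TUBA4A: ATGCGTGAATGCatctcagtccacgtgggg
The residues that TTC5 reads are known to be common to the beta-tubulins, and another set to the alpha-tubulins, so the capitals within a family differ in codons and not in the residues read. TUBB3 and TUBB6 shared the first 12 bases, as did TUBB and TUBB4B. TUBA1A, TUBA1B and TUBA1C were the same over all 30 bases. Over the whole coding sequence TUBA1A and TUBA1B were 97.2% identical and TUBB2A and TUBB2B 98.1%, whereas TUBB3 was 81.7% identical to TUBB and TUBA4A 85.7% to TUBA1B.

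The isotypes part at the other end of the coding sequence. The last 63 coding bases, stop codon included, are given for TUBB3, the member with the highest ratio, and for TUBB, the abundant isotype of its family. Capitals mark bases that differ from TUBB in an alignment of the coding sequences, bases opposite a gap included. The TUBB line is the end of its own coding sequence and is printed without the gaps. The lines therefore do not pair base by base, and the marks cannot be read off by comparing them.
TUBB3: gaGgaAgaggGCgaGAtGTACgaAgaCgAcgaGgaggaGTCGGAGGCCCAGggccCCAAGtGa
TUBB: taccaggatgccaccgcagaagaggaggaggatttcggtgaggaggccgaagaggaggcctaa
In TUBB3, 33 of these 63 bases were marked.

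The library of PHF5A knockdown cells held 25897412 counts and the control library 26552789. PHF5A itself (ENSG00000100410) had 91 counts in knockdown cells and 367 in control cells, 3.93-fold lower by counts scaled to the library total (CPM), with a 95% exact conditional binomial interval of 3.12 to 5.0 for counting error alone, in the direction of its label. Values per gene are FPKM (fragments per kilobase of gene, scaled to the library total) as deposited. Log2 ratios are knockdown over control with a pseudocount of 1 on FPKM, so low genes show less than their full change. A gene was called expressed when its higher library reached 1 FPKM, and higher or lower when the ratio was at least 2-fold, by size alone. Of 8957 expressed genes, 227 (2.53%) were higher in knockdown cells and 555 (6.2%) were lower, and the median log2 ratio was -0.15 (SD over genes 0.63). The higher genes were 29.03% of these calls, 49.1% after median centring of the log2 ratios, 55.5% after upper-quartile scaling and 7.08% after rescaling to TPM. These scalings moved the median log2 ratio of the expressed genes to 0, 0.09 and -0.47, so each tubulin ratio is read beside that median.

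Of the 10 tubulin genes, 9 were expressed, and TUBB2B was not. None was 2-fold higher in knockdown cells, where 2.53% of all expressed genes were. TUBA4A was the only member 2-fold lower, 1 of 9 against 6.2% of all expressed genes. The median log2 ratio of the 9 members was 0.01, with 6 above and 3 below the median of all expressed genes, and the members ran between -1.23 (TUBA4A) and 0.69 (TUBB3). The summed CPM ratio of the 4 alpha-tubulins was 1.13 (interval 1.12 to 1.14), from 77628 counts in knockdown cells and 70466 in control cells, and that of the 6 beta-tubulins was 1.03 (1.02 to 1.04), from 86721 and 86472 counts. By summed FPKM the alpha ratio was 1.13 as deposited, 0.842 after TPM rescaling and 1.37 after upper-quartile scaling. The beta ratio by summed FPKM was 0.999, 0.746 and 1.21 under the same scalings, so neither sum had a direction that held under all of them. All 10 genes together took 0.635% of counts in knockdown cells and 0.591% in control cells.

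**Figure D1:**
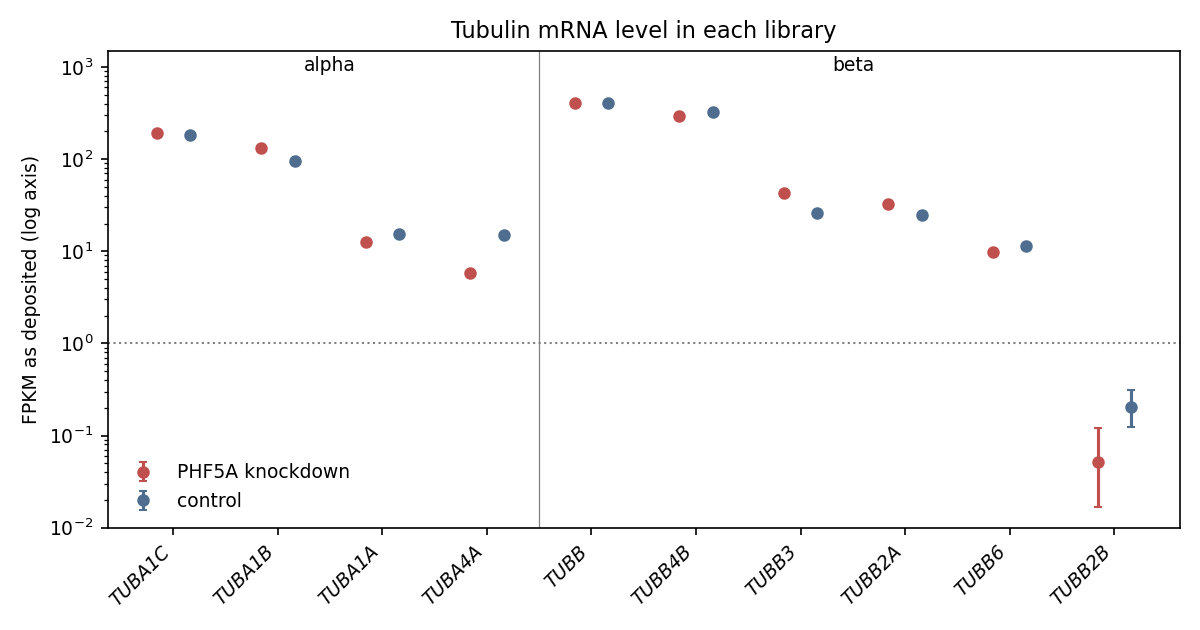
FPKM as deposited of each tubulin gene (log axis) in the PHF5A knockdown library (left of each pair) and the control library, with exact Poisson 95% intervals that are mostly smaller than the points and a dotted line at 1 FPKM. TUBA4A stood at 5.79 FPKM in knockdown cells and 14.9 in control cells, TUBB3 at 42.8 and 26.2, and TUBB2B was under the line in both.

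TUBA1B and TUBA1C, the alpha-tubulins most non-neuronal cells rely on, made up most of the alpha-tubulin counts. TUBA1C (ENSG00000167553, chr12:49188736-49274603, GRCh38, plus strand) had 45902 counts in knockdown cells and 43967 in control cells, or 194 and 182 FPKM. Its log2 ratio was 0.10 and its CPM ratio 1.07 (interval 1.06 to 1.08). That ratio lay 0.25 above the median of expressed genes on the log2 scale, and it fell below 0, to -0.32, only under TPM rescaling among the scalings run. TUBA1B (ENSG00000123416, chr12:49127782-49131397, minus strand) had 28067 counts in knockdown cells and 20474 in control cells, or 133 and 94.7 FPKM. Its CPM ratio was 1.41 (interval 1.38 to 1.43) and its log2 ratio 0.49, higher than that of 88.9% of the expressed genes. It stayed above 0 under each scaling run, at 0.07 under TPM rescaling. Set against TUBA1C, which takes the library total out of the comparison, there were 61.1 TUBA1B counts per 100 TUBA1C counts in knockdown cells and 46.6 in control cells, a ratio of 1.31 (Wald interval for counting error 1.28 to 1.34).

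TUBA1A, the alpha-tubulin of developing neurons, was a minor isotype in these cells. The gene (ENSG00000167552, chr12:49184796-49189324, minus strand) had 2656 counts in knockdown cells and 3377 in control cells, or 12.5 and 15.5 FPKM. Its CPM ratio was 0.806 (interval 0.766 to 0.849) and its log2 ratio -0.29, below the median of expressed genes and below 0 under each scaling run. The 3 TUBA1 genes are close copies: 62.7% of the 50-base stretches of the TUBA1B principal transcript, 41.7% of those of TUBA1A and 25.1% of those of TUBA1C also occurred in transcripts of other genes. The gene intervals of TUBA1A and TUBA1C overlap as well, on opposite strands. The sources used here do not say how reads with several matches were counted, so the split among these 3 is uncertain. Their sum had a CPM ratio of 1.16 (interval 1.15 to 1.17), from 76625 counts in knockdown cells and 67818 in control cells.

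TUBA4A, an alpha-tubulin known from brain, muscle and platelets, had the ratio farthest from 1 among the expressed members. The gene (ENSG00000127824, chr2:219249711-219278170, minus strand) had 1003 counts in knockdown cells and 2648 in control cells, or 5.79 and 14.9 FPKM. It was 2.57-fold lower in knockdown cells by CPM (interval 2.39 to 2.77), with a log2 ratio of -1.23 on the FPKM scale. Only 3.32% of the expressed genes had a lower ratio. Among the scalings run, the log2 ratio lay between -1.62 under TPM rescaling and -0.98 under upper-quartile scaling, where it was just short of 2-fold. There were 2.19 TUBA4A counts per 100 TUBA1C counts in knockdown cells and 6.02 in control cells, a ratio of 0.363 (Wald interval 0.337 to 0.391). TUBA4A is easier to tell from its relatives, with 5.25% of its 50-base stretches in other transcripts. STK16, a kinase gene whose interval overlaps it, had 860 counts in knockdown cells and 1072 in control cells, a log2 ratio of -0.22.

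Markers of heart muscle moved in the same direction as TUBA4A. The 19 heart muscle markers examined summed to 382 counts in knockdown cells and 100805 in control cells. Of the 19, 17 passed 2-fold in the lower direction, where 6.2% of all expressed genes did. All but TNNI3 reached 1 FPKM only in control cells. The filter on the higher library thus favours a lower call for them, and their count cannot be read against the 6.2%. In knockdown cells 9 (MYH6, MYH7, MYL4, NPPA, NPPB, PLN, RYR2, ACTN2 and CSRP3) had 0 counts, and none was at 0 in control cells. Their summed level was 4.03 FPKM in knockdown cells and 328 FPKM in control cells. The 9 fibroblast markers summed to 918 counts in knockdown cells and 2979 in control cells, of which COL1A1 gave 786 in knockdown cells and 1362 in control cells. Of these 9 markers 2 were expressed and 1, COL3A1, was 2-fold lower, against 6.2% of all expressed genes. COL3A1 also passed the filter only through control cells. COL3A1 had 31 counts in knockdown cells and 959 in control cells, COL1A2 had 7 and 352, and PDGFRA had 2 and 93. LUM and POSTN had 0 counts in knockdown cells, and 60 and 15 in control cells. FBN1 had 41 counts in knockdown cells and 86 in control cells, DCN had 9 and 8, and PDGFRB had 42 and 44. The part of such RNA in the ratios of TUBA4A and the other members was not tested. TUBA8, an alpha-tubulin of muscle and testis outside the 10, had 13 counts in knockdown cells and 50 in control cells and was not expressed by the threshold used.

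Among beta-tubulins, TUBB and TUBB4B supplied most of the transcripts and had ratios near 1. TUBB (ENSG00000196230, chr6:30720201-30725426, plus strand) had 43321 counts in knockdown cells and 43999 in control cells, or 407 and 403 FPKM. Its CPM ratio of 1.01 (interval 0.996 to 1.02) was the only one among the 10 whose interval held 1. Its log2 ratio of 0.01 lay 0.16 above the median of expressed genes and became -0.41 under TPM rescaling. TUBB4B (ENSG00000188229, chr9:137241213-137243707, plus strand) had 27045 counts in knockdown cells and 30341 in control cells, or 293 and 321 FPKM. Its CPM ratio was 0.914 (interval 0.899 to 0.929). Its log2 ratio of -0.13 was close to the median of expressed genes, and its sign turned to positive under median centring (0.02), upper-quartile scaling (0.15) and a library total without small RNAs (0.03). Set against TUBB alone, there were 62.4 TUBB4B counts per 100 in knockdown cells and 69.0 in control cells, a ratio of 0.905 (Wald interval 0.886 to 0.925).

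The remaining minor beta-tubulins went in both directions. TUBB2A (class II beta-tubulin, ENSG00000137267, chr6:3153669-3157526, minus strand) had 1758 counts in knockdown cells and 1364 in control cells, or 32.8 and 24.8 FPKM. Its CPM ratio was 1.32 (interval 1.23 to 1.42) and its log2 ratio 0.39, which became -0.02 under TPM rescaling. TUBB2B, its near copy known from developing brain (ENSG00000137285, chr6:3224261-3231730, minus strand), had 5 counts in knockdown cells and 20 in control cells, or 0.0519 and 0.202 FPKM. That is a CPM ratio of 0.256 with a wide interval of 0.0752 to 0.704. Of the 50-base stretches of TUBB2A 65.5% occurred in other transcripts, and its split against TUBB2B is uncertain. The pseudogene entry TUBB2BP1 had 1 count in knockdown cells and 0 in control cells, and PSMG4, a proteasome assembly gene that overlaps TUBB2B, had 184 and 212. TUBB2A and TUBB2B together had a CPM ratio of 1.31 (interval 1.22 to 1.40).

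TUBB6 (class V beta-tubulin, ENSG00000176014, chr18:12307669-12344320, plus strand) had 2745 counts in knockdown cells and 3325 in control cells, or 9.77 and 11.5 FPKM. Its CPM ratio was 0.846 (interval 0.804 to 0.891), and its log2 ratio of -0.22 turned to 0.03 under upper-quartile scaling. TUBB6 had the fewest 50-base stretches in common with other transcripts, 0.993%. AFG3L2, a mitochondrial protease gene that overlaps it, had 458 counts in knockdown cells and 469 in control cells.

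**Figure D2:**
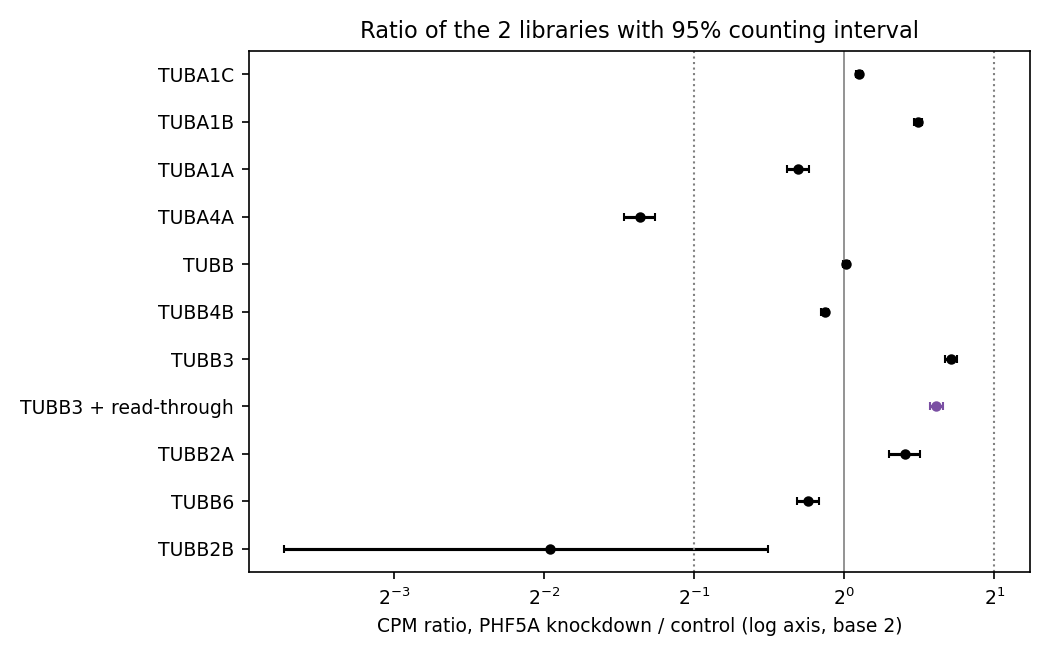
CPM ratio of the PHF5A knockdown library to the control library for each tubulin gene (log axis, base 2), with 95% exact intervals for counting error, a solid line at 1 and dotted lines at 2-fold. TUBB3 had the highest ratio at 1.64, or 1.53 with the counts of the read-through entry added (purple), and among expressed members TUBA4A had the lowest at 0.388.

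TUBB3 was the tubulin gene with the highest ratio among the 10. The gene (ENSG00000258947, chr16:89921392-89938761, plus strand) had 11847 counts in knockdown cells and 7423 in control cells. Its level was 42.8 FPKM in knockdown cells (Poisson interval 42.0 to 43.6) and 26.2 FPKM in control cells (25.6 to 26.8), which do not overlap by counting error. The CPM ratio was 1.64 (interval 1.59 to 1.68) and the log2 ratio 0.69, above that of 93.9% of expressed genes but short of 2-fold. It stayed above 0 under each scaling run, between 0.28 under TPM rescaling and 0.96 under upper-quartile scaling, and was 0.84 above the median of expressed genes. There were 27.3 TUBB3 counts per 100 TUBB counts in knockdown cells and 16.9 in control cells, a ratio of 1.62 (Wald interval 1.57 to 1.67) that no scaling of the libraries can change.

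A neighbouring entry bears on the TUBB3 count. RP11-566K11.2 (ENSG00000198211) is a read-through entry that joins MC1R, the melanocortin receptor gene just upstream, to TUBB3. Of its 2776 exonic bases 1584 also lie in TUBB3 exons and the other 1192 in MC1R exons, so it has no exonic base of its own. It had 0 counts in knockdown cells and 513 in control cells, at least 167-fold lower when the knockdown library is set at the 3 counts that a count of 0 allows, a bound that leaves out the counting error of the 513. MC1R had 885 counts in knockdown cells and 952 in control cells, a CPM ratio of 0.953 (interval 0.869 to 1.05). In the TUBB3 principal transcript, 89.4% of 50-base stretches occurred in other transcripts with this entry included and 8.90% without it. The sources used here do not say how reads that match both entries were assigned. With the read-through counts added, TUBB3 had 11847 counts in knockdown cells and 7936 in control cells, a CPM ratio of 1.53 (interval 1.49 to 1.57). An antisense entry in the same interval, RP11-566K11.4, had 28 counts in knockdown cells and 34 in control cells.

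TUBB3 is used as a neuronal marker, and the neuronal markers examined were near 0 in both libraries. None of the 17 reached 1 FPKM. They summed to 345 counts in knockdown cells and 524 in control cells. NCAM1 gave 2 of these in knockdown cells and 203 in control cells, and NEFL 0 and 35, whereas MAP2 gave 106 and 50. The highest single level was 0.518 FPKM, in control cells, and NEFM, NEFH, INA, STMN2 and CHGA had 0 counts in both. Colon epithelial markers gave 354583 counts in knockdown cells and 371861 in control cells, with 6 of 10 expressed, and nearly all of them came from the keratins KRT8, KRT18 and KRT19. None of the 6 was called higher or lower, and their median log2 ratio was -0.04. CDX2, an intestinal transcription factor, had the lowest ratio of the 6. It had 367 counts in knockdown cells and 822 in control cells, 2.18-fold lower by CPM (interval 1.93 to 2.48) at a log2 ratio of -0.93. EPCAM had 501 counts in knockdown cells and 412 in control cells, a CPM ratio of 1.25 (interval 1.09 to 1.42). The CPM ratio was 0.881 for KRT8, 1.14 for KRT18, 0.986 for KRT19 and 0.947 for CDH1. CDH17, CDX1 and TSPAN8 were at 0 in both. The blood cell markers summed to 402 counts in knockdown cells and 556 in control cells.

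The makeup of the 6 beta-tubulin members shifted toward TUBB3 in knockdown cells. TUBB3 had the highest ratio of the 6, and each length scale gives a gene the same length in both libraries. Its share therefore rises on any length scale, and the scales change only the size of the share. TUBB4A, a further expressed beta-tubulin, and the read-through entry (0 counts in knockdown cells and 513 in control cells) are left out of these shares. With the read-through counts added, the ratio of TUBB3 to TUBB between the libraries was 1.52 (Wald interval 1.47 to 1.56). TUBB3 made up 5.45% of the summed beta-tubulin FPKM in knockdown cells and 3.33% in control cells. For most genes (87.2% of 3612 checked, within 1%) the deposited FPKM divides by the summed length of all annotated exon versions, and for TUBB3 the length behind it is 10685 bases although the principal transcript has 1769. TUBA1C, with 9119 bases behind its FPKM and an exon sum of 9970, and TUBB4A, with 9343 and 7338, departed from that rule. Levels of different isotypes were therefore also computed per kilobase of the union of annotated exons and per kilobase of the principal transcript. TUBB3 then made up 8.89% in knockdown cells and 5.45% in control cells on the first scale, and 15.99% and 10.1% on the second. By counts it took 13.7% (exact binomial interval 13.4 to 13.9) in knockdown cells and 8.58% (8.40 to 8.77) in control cells.

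**Figure D3:**
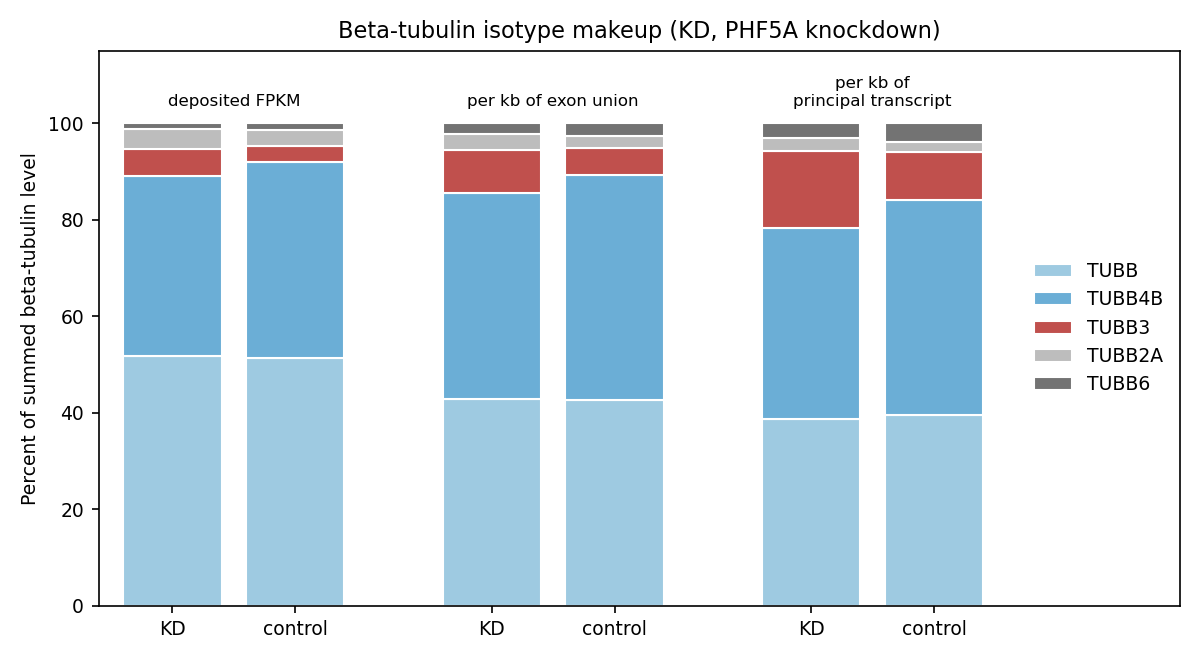
Percent of the summed level of the 6 beta-tubulin members contributed by each in the PHF5A knockdown (KD) and control libraries on 3 length scales. TUBB2B, under 0.1% throughout, is not drawn. The TUBB3 band was wider in the knockdown library on each scale, which follows from its ratio being the highest of the 6. It was widest per kilobase of principal transcript, at 15.99% in knockdown cells and 10.1% in control cells.

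The order of the isotypes depended on the length used. By deposited FPKM the order in both libraries was TUBB, TUBB4B, TUBA1C, TUBA1B, TUBB3, TUBB2A and TUBA1A. Below them TUBB6 ranked above TUBA4A in knockdown cells, and TUBA4A above TUBB6 in control cells. Neighbouring levels by deposited FPKM whose Poisson intervals overlapped in control cells were TUBB3 (25.6 to 26.8 FPKM) with TUBB2A (23.5 to 26.1), and TUBA1A (15.0 to 16.1) with TUBA4A (14.3 to 15.5). In knockdown cells no neighbouring levels by deposited FPKM overlapped in this way. These overlaps rest on the deposited lengths. Per kilobase of principal transcript, control levels were 158 for TUBB3 and 32.2 for TUBB2A, and 67.4 for TUBA1A and 46.1 for TUBA4A. Per kilobase of principal transcript TUBA1B came first in knockdown cells, with a level of 666, while TUBB4B came first in control cells, with 698. TUBB3 ranked 5 among the 10 on each of these scales, at 259 in knockdown cells and 158 in control cells per kilobase of principal transcript. The summed beta level exceeded the summed alpha level 2.27-fold in knockdown cells and 2.57-fold in control cells by deposited FPKM, and 1.22-fold and 1.38-fold per kilobase of principal transcript.

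**Figure D4:**
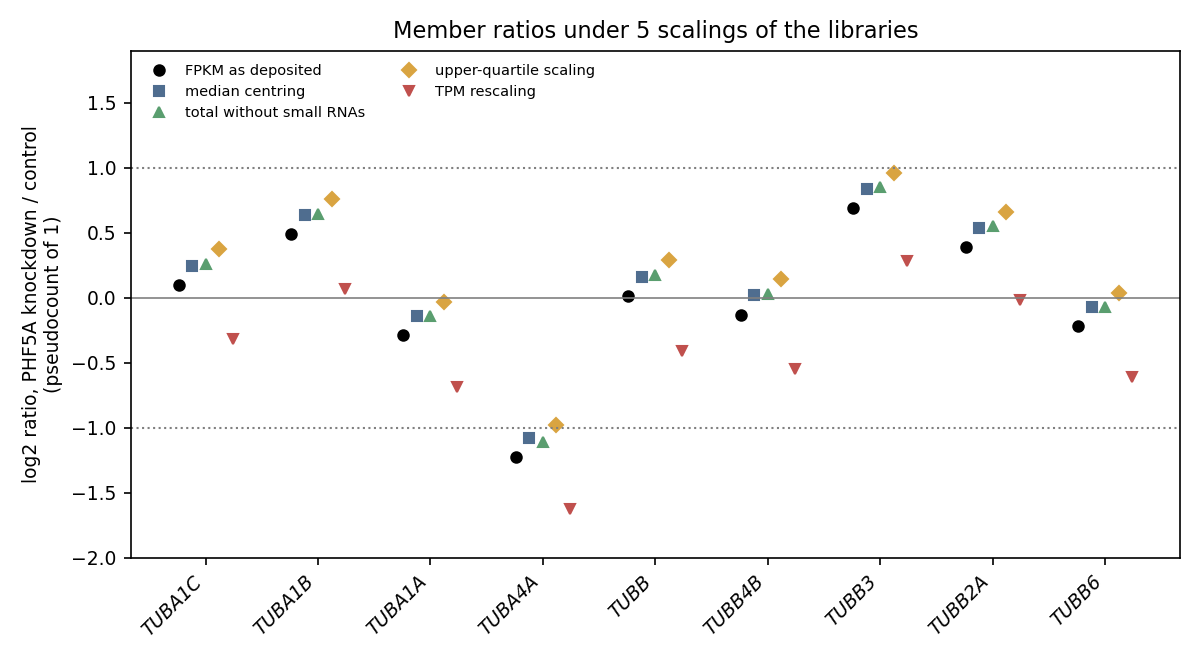
Log2 ratio of PHF5A knockdown to control (FPKM, pseudocount of 1) for the 9 expressed tubulin genes under 5 scalings of the libraries, with dotted lines at 2-fold. The scalings shifted all genes together: TUBB3 lay above 0 and TUBA4A near or below -1 in each, while TUBA1C, TUBB, TUBB2A, TUBB4B and TUBB6 lay on both sides of 0.

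Of the 4 factors of tubulin mRNA autoregulation examined, 3 were expressed, with a median log2 ratio of -0.10. None of these 3 differed by 2-fold, against 2.53% of all expressed genes higher and 6.2% lower. The remaining factor, SCAPER, was under 1 FPKM in both libraries. It had 12 counts in knockdown cells and 36 in control cells, 2.93-fold lower by CPM (interval 1.49 to 6.18). TTC5, which reads the nascent tubulin chain, had 1.93 FPKM in knockdown cells and 2.15 in control cells, a CPM ratio of 0.900 (interval 0.804 to 1.01). CNOT1, the scaffold of the deadenylase complex that the pathway recruits, had 3.98 FPKM in knockdown cells and 5.14 in control cells, a CPM ratio of 0.774 (interval 0.729 to 0.822). SETD6, which overlaps CNOT1, had 101 counts in knockdown cells and 57 in control cells.

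Outside the 10, a further beta-tubulin was more than 2-fold higher in knockdown cells. TUBB4A (ENSG00000104833), the class IVa isotype best known from brain and oligodendrocytes, had 2473 counts in knockdown cells and 1100 in control cells, or 10.2 and 4.43 FPKM. Its log2 ratio was 1.05 and its CPM ratio 2.31 (interval 2.15 to 2.48). There were 5.71 TUBB4A counts per 100 TUBB counts in knockdown cells and 2.50 in control cells. Its coding sequence is 88.0% identical to that of TUBB3. TUBG1, the gamma-tubulin that nucleates microtubules, had 66.4 FPKM in knockdown cells and 88.1 in control cells, a log2 ratio of -0.40. Its interval overlaps that of FAM134C, which had 4802 counts in knockdown cells and 2976 in control cells. The second gamma-tubulin gene, TUBG2, had 4.96 FPKM in knockdown cells and 8.60 in control cells, a log2 ratio of -0.69. The other 9 of the 12 remaining tubulin family genes were not expressed, and TUBA3C, TUBA3D, TUBA3E and TUBB1 had 0 counts in both libraries.

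New tubulin chains are handed from prefoldin to the CCT chaperonin and then to the tubulin cofactors, which assemble the dimer. Of 21 such genes 18 were expressed, 0 were 2-fold higher in knockdown cells and 2 were lower, against 2.53% and 6.2% of all expressed genes, and the median log2 ratio was -0.17. ARL2, a small GTPase that works with the cofactors, had 10.5 FPKM in knockdown cells and 27.9 in control cells, a log2 ratio of -1.33. PFDN5, a prefoldin subunit, had 2.72 FPKM in knockdown cells and 7.01 in control cells, a log2 ratio of -1.10. PFDN6 passed 2-fold by CPM alone, with 82 counts in knockdown cells and 216 in control cells. It was 2.57-fold lower by CPM (interval 1.98 to 3.35), at a log2 ratio of -0.69. The 5 expressed cofactor genes had a median log2 ratio of -0.53 and the 8 CCT subunits 0.19. Within the chaperonin the values ran between -0.41 for CCT7 and 0.64 for CCT5.

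Of the enzymes that modify tubulin tails and luminal sites, 22 were listed, 21 were found by symbol, 8 were expressed and 1 was 2-fold lower in knockdown cells, against 6.2% of all expressed genes. VASH1, a vasohibin that removes the terminal tyrosine of alpha-tubulin, had 591 counts in knockdown cells and 1638 in control cells, or 2.62 and 7.09 FPKM, and a log2 ratio of -1.16. A noncoding entry that overlaps it, RP11-488C13.5, had 40 counts in knockdown cells and 163 in control cells. TTL, the ligase that puts the tyrosine back, was under 1 FPKM in both libraries, with 102 counts in knockdown cells and 468 in control cells, 4.47-fold lower by CPM (interval 3.61 to 5.60). Other listed genes under 1 FPKM went both ways. TTLL5 had 27 counts in knockdown cells and 182 in control cells, 6.57-fold lower by CPM (interval 4.37 to 10.2). VASH2 had 15 counts in knockdown cells and 1 in control cells, and TTLL11 had 63 and 28, a CPM ratio of 2.31 (interval 1.46 to 3.74). AGBL5, a deglutamylase, lay just outside the threshold at a log2 ratio of -0.995 and was 2.22-fold lower by CPM (interval 2.05 to 2.40), and OST4, which overlaps it, had 4523 counts in knockdown cells and 4472 in control cells. Of 10 subunits of the gamma-tubulin ring complex, from which microtubules are nucleated, 6 were expressed. None of them differed by 2-fold, against 2.53% of all expressed genes higher and 6.2% lower. The largest differences were a log2 ratio of 0.68 for MZT2B, a small subunit with a near-identical copy, MZT2A, and -0.46 for TUBGCP6. SMPD4, which overlaps MZT2B, had 2493 counts in knockdown cells and 5067 in control cells.

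Proteins that bind or take apart microtubules included the highest log2 ratio among the expressed genes of the lists examined. STMN3, a stathmin that sequesters tubulin dimers and is known from neurons, had 7673 counts in knockdown cells and 2238 in control cells, or 58.9 and 16.7 FPKM. It was 3.52-fold higher in knockdown cells by CPM (interval 3.35 to 3.69), with a log2 ratio of 1.75. Of the 3 expressed among 11 destabilisers STMN3 alone was called, against 2.53% of all expressed genes called higher and 6.2% lower. Below the threshold for expression, the severing enzyme gene FIGN had 2 counts in knockdown cells and 135 in control cells, 65.8-fold lower by CPM (interval 17.9 to 549). Of 26 microtubule-associated proteins 16 were expressed, 1 was higher and 1 lower, against 2.53% and 6.2% of all expressed genes, with a median log2 ratio of -0.34. By CPM, without a pseudocount, 4 more expressed members passed 2-fold, all lower in knockdown cells: MAP1B (4.74-fold), MAPRE2 (2.24-fold), EML3 (2.18-fold) and CLIP2 (2.12-fold). The share of all expressed genes past 2-fold by CPM was not computed, so these 4 cannot be set against the 6.2%. With a pseudocount of 0.1 in place of 1, 12.6% of all expressed genes were lower. MAP1S, a ubiquitous relative of the neuronal MAP1 proteins, had 14.1 FPKM in knockdown cells and 5.87 in control cells, a log2 ratio of 1.14. EML2, which binds the microtubule lattice, had 2.73 FPKM in knockdown cells and 7.10 in control cells, a log2 ratio of -1.12. The antisense entry EML2-AS1 had 54 counts in knockdown cells and 75 in control cells.

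**Figure D5:**
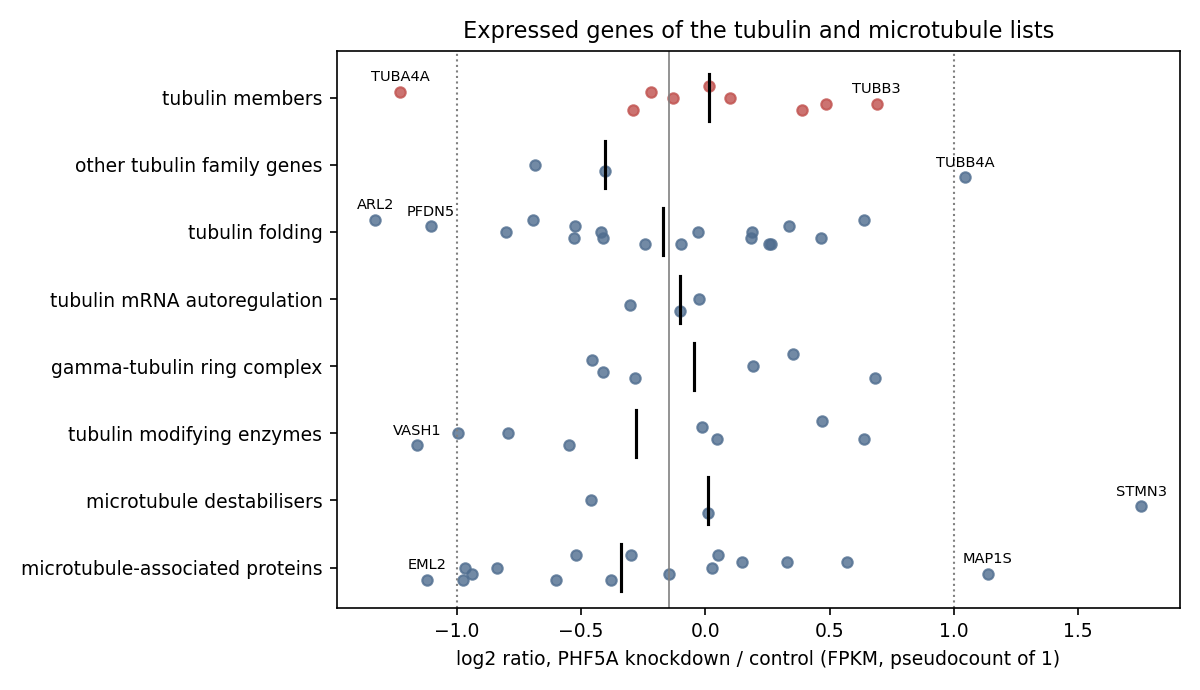
Log2 ratio of PHF5A knockdown to control (FPKM, pseudocount of 1) for the expressed genes of the tubulin and microtubule lists; black bars are list medians, the grey line is the median of all expressed genes at -0.15 and dotted lines are at 2-fold. Members spread on both sides of the grey line between TUBA4A at -1.23 and TUBB3 at 0.69, and STMN3 stood farthest right at 1.75.

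Genes with a pattern like that of TUBB3 were sought by the Euclidean distance of log2(FPKM + 1) over the 2 libraries, which with 2 libraries measures only level and ratio. The 3 nearest protein-coding genes were POLDIP3, FIS1 and THAP4. POLDIP3 had 43.9 FPKM in knockdown cells and 25.7 in control cells, at a distance of 0.0427. FIS1 had 44.8 FPKM in knockdown cells and 24.5 in control cells, and THAP4 had 45.9 and 25.1.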

How the data were processed

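Total RNA libraries were made with a stranded kit, per the labels' protocols, and HISAT2 2.0.4 and Cuffdiff were used with hg38 (GRCh38), per the submitters' processing notes. The sources used here do not state the annotation release, the read length, the strand setting or what was done with reads that match several places. The deposited table holds raw counts and FPKM of each gene in both libraries, per the file headers. Of 50869 lines, 2 that held 1 broken gene entry were left out. FPKM as deposited was the main measure, with a pseudocount of 1 and a minimum of 1 FPKM in the higher library. Where a library had 0 counts, the bound used a floor of 3 counts in that library.

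From the deposited counts, CPM ratios were given exact conditional binomial intervals, shares exact Clopper-Pearson intervals, FPKM levels exact Poisson intervals, and ratios between genes Wald intervals on the log scale, all at 95%. They, and the floor, describe counting error alone, since several reads can stem from 1 molecule. Gene models, coding sequences and shared 50-base stretches were taken from GENCODE release 29, in which 50110 gene identifiers were found and 757 were not. Member positions were the same in the deposited table and in GENCODE.

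The members, the gene lists and the alternatives were chosen with earlier results of these data known. Genes named are PHF5A, all members, other tubulin genes of at least 1 FPKM, list members past 2-fold (at most 4, otherwise up to 2 with the largest ratio), the 3 genes nearest to TUBB3, and overlapping or pseudogene entries with at least 5% of a member's counts. Other overlapping entries, genes at 0, MC1R, MZT2A, TUBA8, CCT5, CCT7, EPCAM and CDH1 were named after values were seen. So were list genes under 1 FPKM or past 2-fold by CPM alone. The alternatives tried were a pseudocount of 0.1 or 0.5, leaving out the filter, a minimum of 5 FPKM, median centring, upper-quartile scaling, TPM rescaling, a library total without 7SL, 7SK, RNase P and RNase MRP RNA entries, a 1.5-fold threshold, and counts summed with overlapping and pseudogene entries. The other length scales and the CPM ratio were added after the values were seen. The end of the alpha-tubulin coding sequences is not reported here. Scripts were tested on simulated data. The software was Biopython 1.88, matplotlib 3.10.9, scipy 1.17.1, pandas 2.3.3 and numpy 2.4.6 under Python 3.11.15.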

Additional observations from a re-analysis of the deposited data

How the results depend on the processing

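No paired analysis was possible because each group had only 1 library. With no replicate, variation between cultures and effects of the siRNA on other transcripts cannot be told apart from the knockdown. Genes 2-fold higher and lower in knockdown cells numbered 227 and 555 as deposited, 469 and 1129 with a pseudocount of 0.1, 131 and 309 with a minimum of 5 FPKM, 345 and 358 under median centring, 412 and 330 under upper-quartile scaling, 107 and 1405 under TPM rescaling, and 757 and 1631 at 1.5-fold; without small RNAs in the total, 394 were higher. At 1.5-fold 1 member, TUBB3, was higher, and under upper-quartile scaling 0 members were lower, since TUBA4A was then just short of 2-fold. The median log2 ratio of the members was 0.01 as deposited, -0.058 with no filter, 0.16 under median centring, 0.29 under upper-quartile scaling, -0.41 under TPM rescaling and 0.17 without small RNAs. The summed alpha-tubulin FPKM ratio of 1.13 became 1.37 under upper-quartile scaling, 0.842 under TPM rescaling and 1.26 without small RNAs, and the beta-tubulin ratio of 0.999 became 1.21, 0.746 and 1.12 in that order of scalings. Small RNA entries took 26.2% of counts in knockdown cells and 17.5% in control cells; the part of this in the ratios was measured only through that rescaling. The TUBB3 share of the beta-tubulin level was 5.45% in knockdown cells and 3.33% in control cells by deposited FPKM, 13.7% and 8.58% by counts, 8.89% and 5.45% by exon union, and 15.99% and 10.1% by principal transcript. For single members, 89 values were computed under the alternatives: 49 moved by less than the counting interval and 40 moved by more. The 49 include values under a changed filter, which leaves the ratio of a single gene as it is. Changes of sign were recorded for called members alone, and 0 were found, but TUBA4A was the only member called. Of the members not called, TUBA1C, TUBB, TUBB2A, TUBB4B and TUBB6 changed sign under some of the scalings. Depth limits TUBB2B, with 5 counts in knockdown cells and 20 in control cells.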

Other observations

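The length behind the deposited FPKM was worked out from the ratio of count to FPKM. Among 3612 genes with a GENCODE match and high counts in control cells, 87.2% had an implied length within 1% of the summed length of all distinct annotated exons, so that overlapping versions of an exon were counted repeatedly, and 6.84% had the length of the exon union. The implied length was 1.68 times the union at the median. Among the tubulins, TUBB3 and TUBB6 have many annotated transcripts, 15 and 14, and implied lengths of 10685 and 10850 bases for principal transcripts of 1769 and 2064 bases, while TUBB2A has 2 annotated transcripts and an implied length of 2072 bases for a principal transcript of 1595. Ratios between the libraries keep the same length on both sides and change only through the pseudocount.

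Reads listed under tubulin pseudogenes were few. The 38 alpha- and beta-tubulin pseudogene entries held 316 counts in knockdown cells and 467 in control cells, and 20 of them had 0 counts in both. TUBAP2 alone was expressed, with 218 counts in knockdown cells and 349 in control cells, a log2 ratio of -0.56, against 0.49 for TUBA1B. Counts of TUBB3 summed with its overlapping and pseudogene entries were 11875 in knockdown cells and 7970 in control cells, a CPM ratio of 1.53 (interval 1.48 to 1.57).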
